A study of Mus musculus with 2 samples.

Results

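Dividing monocyte-lineage cells of the healing skull were picked from 2 single-cell RNA libraries by a rule on their own transcripts. A cell was taken if it held at least 2 unique molecular identifiers (UMIs, each standing for 1 captured transcript) of Csf1r and at least 3 of Mki67 and Top2a together. Csf1r is the receptor for the growth factor of monocytes and macrophages, Mki67 is a nuclear protein of cycling cells, and Top2a untangles DNA before mitosis. Cells were left out if they held 20 or more UMIs of the complement genes C1qa, C1qb and C1qc, or 5 or more of Siglech, a receptor of plasmacytoid dendritic cells. Limits on the share of neutrophil, azurophil granule and collagen transcripts kept out cells of those kinds. The rule took 337 of 17129 kept cells, 233 of 9036 from the GA library and 104 of 8093 from the control library. Since the rule reads these genes in the same cells, their levels are given as a description.

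Monocytes arise in the bone marrow from dividing progenitors. As they mature, they take up the surface protein Ly6C, leave the marrow through the chemokine receptor Ccr2 and stop dividing. In injured tissue they turn into macrophages or into dendritic cells, which show peptides to T cells on MHC class II, and in bone some fuse into osteoclasts. The skull encloses marrow of its own, so a digest of skull bone can hold both the dividing precursors and their offspring.

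Both libraries came from wild-type C57BL/6 mice (C57BL/6J in the methods of the study), males of 2 months, 5 mice pooled in each, with a circular frontal bone defect of 1.8 mm. GA mice received gambogic amide, a small molecule, in 100 µL of 10% DMSO, and control mice received 100 µL of 10% DMSO alone. Intraperitoneal injections began 24 h before injury and continued daily, and bone with the defect at its centre was taken on day 7 and digested with collagenase. The labels give the dose as 1.2 mg/kg for 1 week, while the methods of the study give 2 mg/kg. Each group is 1 library, so there is no test between groups, and treatment, pool of mice and library cannot be told apart. Intervals are 95% and cover counting error only.

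The dividing cells were among the deeper cells of the data. They held 8628514 UMIs in GA and 3310157 in control, with a median of 35262 UMIs per cell in GA and 28823 in control. The shallowest of them had 9917 UMIs in GA and 11800 in control. Cells of the same gate with no Mki67 or Top2a UMI, called non-dividing below, had medians of 15549 and 13117. Among all kept cells the medians were 11267 in GA and 17499 in control, so the dividing cells were deeper in GA while the library as a whole was shallower. Of the dividing cells, 15 in GA and 12 in control were among the barcodes with the highest doublet scores.

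Most of the cells carried Ly6c2 (chr15:75108161-75112066, GRCm38.p6), which the rule did not use and which encodes the Ly6C antigen of classical monocytes. Ly6c2 was at 1597 CPM in GA (the gene's UMIs summed over the cells, as a share of all their UMIs on the usual counts scale) and 1390 in control. It was detected in 213 of the GA cells and 84 of the control cells, and 20 cells in each library had none. Its close relative Ly6c1, which marks other cells such as endothelium, was at 1.62 and 0.906 CPM. Across GA cells the quartiles of Ly6c2 were at 1213, 1764 and 2206 CPM. Across control cells the median was 1874 CPM, but the lower quartile was at 47.3. Control thus held a larger fraction of dividing cells with little Ly6c2.

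Other monocyte genes were present at high levels. Lyz2, which encodes lysozyme, was at 8581 CPM in GA and 7859 in control. F13a1, a clotting factor subunit made by monocytes, was at 1331 and 963 CPM, and Ccr2 at 649 and 492. Irf8, a transcription factor of the monocyte and dendritic branch, was at 224 and 203 CPM. Csf1r itself was lower than in the non-dividing cells of the same gate, at 147 against 412 CPM in GA and 195 against 463 in control. The rule uses Csf1r, however, and its UMI minimum stands for a higher CPM in the shallower non-dividing cells. The minimum and the depth push towards this order, so the Csf1r values only describe the cells. How much of the difference they make was not tested. The monocyte markers were thus present in the majority of the cells, and the Ly6c2-low remainder is described by its own genes further on.

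Dividing monocyte-lineage cells took up a larger share of the GA library. They made up 2.58% of kept cells in GA (2.26 to 2.93) against 1.29% in control (1.05 to 1.55), with a ratio of 2.01 (1.60 to 2.52). The gate as a whole, dividing and not, differed little. It held 654 cells in GA (7.24%) and 623 in control (7.70%), with a ratio of 0.940 (0.846 to 1.04). Within the gate, 35.6% of GA cells were dividing (32.0 to 39.4) against 16.7% in control (13.8 to 19.9), a ratio of 2.13 (1.74 to 2.62). The non-dividing cells were fewer in GA, 347 against 439, with a ratio of shares of 0.708 (0.617 to 0.812). A further 74 GA and 80 control cells held 1 or 2 UMIs of Mki67 and Top2a and were counted in neither group.

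Other kinds of dividing cell are set beside them here. Dividing granulocytic cells, defined by specific granule genes, stood at 5.10% in GA against 2.67% in control, with a ratio of 1.91 (1.63 to 2.24). Dividing progenitors with azurophil granule genes were 3.18% and 1.31%, a ratio of 2.42 (1.94 to 3.02). Dividing C1q macrophages took up a smaller share of kept cells in GA, with 72 GA and 90 control cells and a ratio of 0.717 (0.526 to 0.975). Within the C1q gate, however, 11.9% of GA cells and 9.51% of control cells were dividing, a ratio of 1.25 (0.935 to 1.68). Whether the ratios differ between kinds of cell was not tested, since each group is 1 library. Of all cells with at least 3 UMIs of Mki67 and Top2a, 18.2% of kept GA cells and 16.0% of kept control cells, the monocyte-lineage cells were 14.2% in GA (12.5 to 15.9) and 8.02% in control (6.60 to 9.63).

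**Figure D1:**
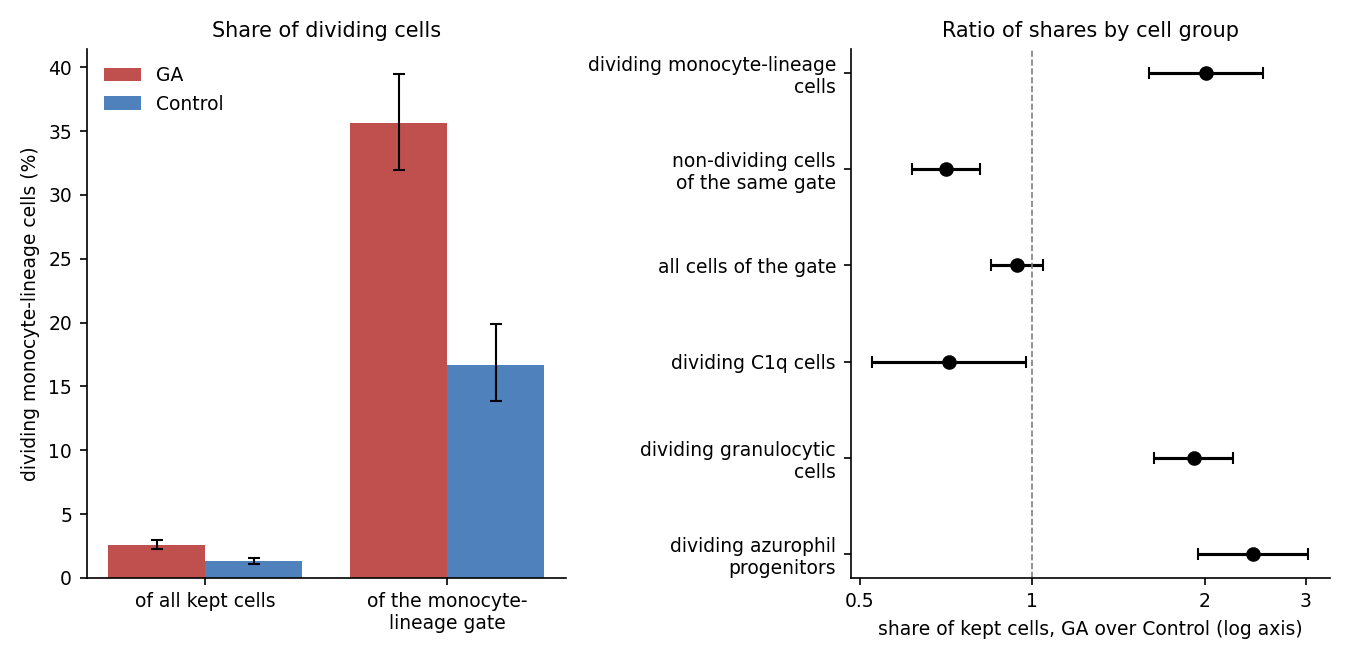
Left, dividing monocyte-lineage cells as a percentage of all kept cells and of the monocyte-lineage gate, by library, with exact 95% intervals as bars. Right, the ratio of shares of kept cells, GA over control, on a log axis with 95% intervals, where dividing monocyte-lineage cells lie at 2.01 and non-dividing cells of the same gate at 0.708.

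With exactly 3 UMIs of Mki67 and Top2a, 7 cells were inside in each library, and with exactly 2, 20 GA and 16 control cells were outside. Across this limit Ly6c2 was at 651 CPM inside and 569 outside in GA, and at 537 and 271 in control. H2-Ab1, a gene of MHC class II, was at 1597 and 1394 CPM in GA and at 3825 and 3572 in control, so the cells on either side were close in it. With 2 Csf1r UMIs, 40 GA and 18 control cells were inside, and with 1, 44 and 28 cells were outside. The Ly6c2 level was 1667 CPM in those 40 GA cells and 2084 CPM in those 18 control cells, against 680 and 678 CPM just outside. Only 1 GA and 2 control cells held 10 to 19 C1q UMIs, and 2 in each library held 20 to 29.

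The cycle programme of these cells went well beyond the rule genes. Against the non-dividing cells, 689 of 8702 genes with at least 200 UMIs (7.92%) were at least 2-fold higher in both libraries, and 460 (5.29%) at least 2-fold lower. Because Mki67 and Top2a chose the cells, these counts only describe them. Of the G2/M list, whose genes peak before and during mitosis, 45 of 50 were higher, with a median log2 ratio of 5.13 in GA and 5.25 in control. Of the S phase list, the genes of DNA replication, 39 of 42 were higher, with medians of 3.81 and 3.42. Nucleotide synthesis followed with 12 of 21 genes and medians of 1.40 and 1.42.

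The 10 genes with the largest ratios were Cep55, Ccna2, Kif11, Depdc1a, Kif14, Ccnb1, Nusap1, Shcbp1, Nek2 and Neil3. Nearly all act in mitosis, as spindle motors, cyclins or proteins of the final cut between daughter cells, while Neil3 repairs DNA. Ccna2, which encodes cyclin A2, was at 168.6 CPM in dividing GA cells and 0.509 in non-dividing ones, and at 144.7 against 0.547 CPM in control. Cdk1, the kinase that drives entry into mitosis, was at 179 CPM in GA and 212 in control, and non-dividing cells had 1.02 and 2.33 CPM. Ccnb2, one of its cyclins, was at 165 and 151 CPM, against 10.9 and 4.79 CPM in non-dividing cells. Both were higher in the dividing cells of each library.

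Promoters of G2/M genes are known for CCAAT boxes, bound by NF-Y, and for the cell cycle homology region (CHR, TTTGAA), bound by the complexes that time these genes. The windows of Cdk1 (chr10:69352913-69353162, minus strand) and Ccnb2 (chr9:70421555-70421804, minus strand) hold letter matches to both. They are the 250 bases before the transcription start from RefSeq on GRCm38.p6, with matches to CCAAT and TTTGAA on either strand in capitals.
Cdk1: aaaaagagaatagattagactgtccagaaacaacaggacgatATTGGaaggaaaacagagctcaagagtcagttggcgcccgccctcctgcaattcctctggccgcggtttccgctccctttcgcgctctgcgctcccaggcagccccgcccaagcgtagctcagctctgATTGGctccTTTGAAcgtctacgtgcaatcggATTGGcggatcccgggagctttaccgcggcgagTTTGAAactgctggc
Ccnb2: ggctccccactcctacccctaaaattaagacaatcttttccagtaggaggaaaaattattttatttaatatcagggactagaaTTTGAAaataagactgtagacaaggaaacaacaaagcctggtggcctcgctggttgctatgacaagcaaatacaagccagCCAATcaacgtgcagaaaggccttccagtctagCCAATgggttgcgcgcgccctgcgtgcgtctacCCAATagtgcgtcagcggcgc
Over the same 250 bases, 36 of the 46 G2/M genes with a RefSeq window held CCAAT (78.3%), against 37.5% of 27025 genes, and 17 held TTTGAA (37.0%), against 18.3%. These are letter matches and not measured binding, and TTTGAA and CCAAT share no bases in these 2 windows. In Cdk1 TTTGAA begins 71 and 15 bases before the start. In Ccnb2 it begins 167 bases before the start, upstream of the CCAAT matches, and whether it acts as a CHR was not tested.

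Maturation genes were lower in the dividing cells. Of the tissue macrophage list, 15 of 19 genes were at least 2-fold lower in both libraries, with medians of -2.08 in GA and -1.67 in control. Of the non-classical monocyte list, 10 of 16 were lower, and of the inflammatory list 14 of 26. Of the interferon response list, 24 of 39 were lower. The 10 lowest genes were Gzma, Ace, Lyz1, Plpp3, Ccl5, Ifit3, Adgre4, Inhba, Oscar and Mt3. Ace and Adgre4 are known from Ly6C-low monocytes and Oscar from osteoclasts, and Gzma and Ccl5 are made by cytotoxic lymphocytes. Among Ly6c2-high cells alone, where 224 of 6925 genes (3.23%) were at least 2-fold lower in both libraries and 554 (8%) higher, 20 of 31 interferon response genes were lower, with medians of -1.67 in GA and -1.64 in control, and 5 of 6 MHC class II genes. The MHC class II difference lay mostly in few non-dividing cells. The median cell of both states had no UMI of H2-Aa, H2-Ab1 or H2-Eb1. In GA, 26.6% of dividing and 25.2% of non-dividing cells had any. In control the shares were 27.0% and 32.2%, with upper quartiles of 26.8 and 88.1 CPM. Single non-dividing cells reached 43091 CPM in GA and 38716 in control. The other maturation lists had a smaller share of lower genes there. Of the tissue macrophage list 5 of 11 genes were lower, with medians of -0.98 and -1.07, of the non-classical monocyte list 5 of 12, with -0.86 and -0.87, and of the inflammatory list 6 of 21, with -0.92 and -0.61. Classical monocyte genes had medians of -0.71 in GA and -0.36 in control, with 4 of 25 lower, and glycolysis genes 0.25 and 0.03.

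The share of cells with more S phase than G2/M transcripts was alike in the 2 libraries within counting error. Each cell was thinned to 10000 UMIs, which left out 1 GA cell, and the rule genes were not counted. S phase UMIs outnumbered G2/M UMIs in 44 of 232 GA cells (19.0%, 14.1 to 24.6) and in 17 of 104 control cells (16.3%, 9.82 to 24.9), a ratio of 1.16 (0.697 to 1.93). The median cell held 34 S phase and 100 G2/M UMIs in GA, and 28.5 and 101 in control. Unthinned, the shares were 17.6% and 18.3%. Summed over the unthinned cells, however, the S phase list had a log2 ratio of 0.22 (0.19 to 0.25), GA over control. The G2/M list had 0.04 (0.02 to 0.06). A rule on Mki67 and Top2a favours cells late in the cycle, so the shares are no estimate of the true phases. By the same measure, S phase UMIs led in 8.17% of GA and 10.3% of control dividing granulocytic cells. The shares were 21.3% and 24.5% in dividing progenitors with azurophil granule genes, and 30.6% and 36.0% in dividing C1q macrophages.

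**Figure D2:**
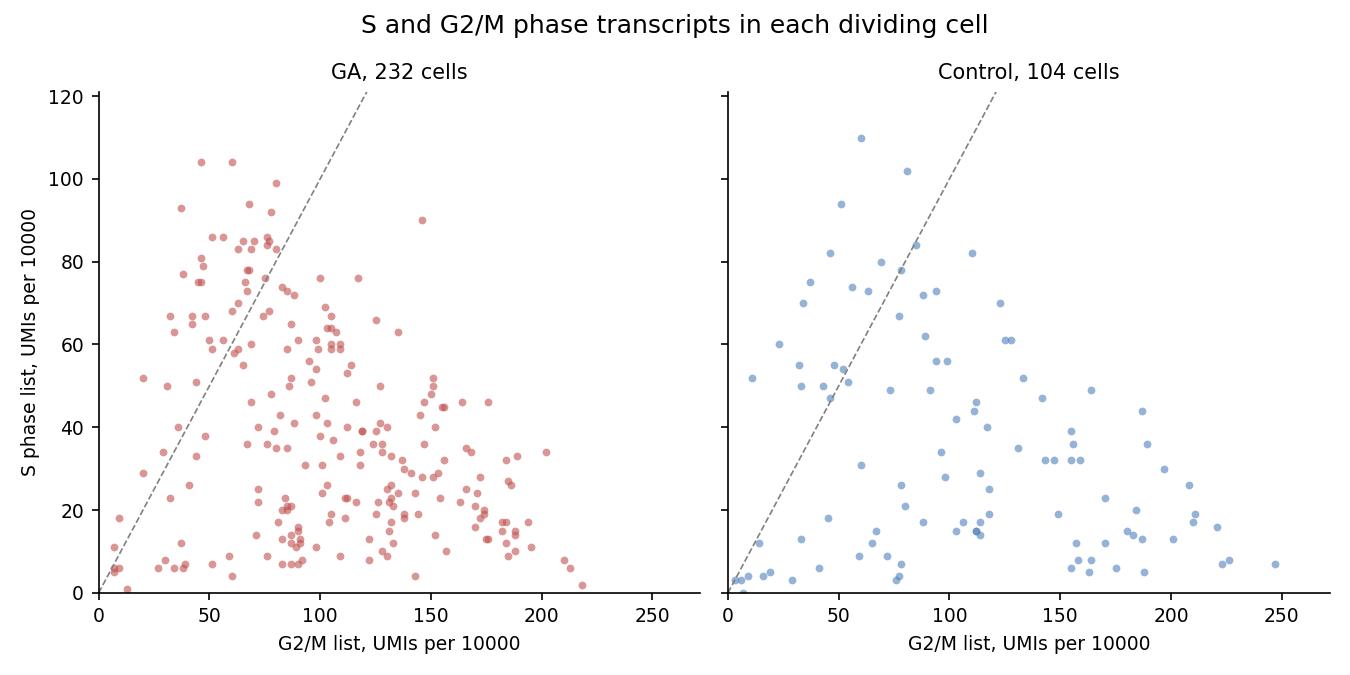
Each point is 1 dividing monocyte-lineage cell thinned to 10000 UMIs, with UMIs of the G2/M list on the x axis and of the S phase list on the y axis, GA left and control right. Points above the dashed line of equality hold more S phase than G2/M UMIs, 44 of 232 in GA and 17 of 104 in control.

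The dividing cells split into a Ly6c2-high majority and a mixed minority. After thinning to 10000 UMIs, 199 of 232 GA cells (85.8%, 80.6 to 90.0) and 74 of 104 control cells (71.2%, 61.4 to 79.6) held 5 or more Ly6c2 UMIs, a ratio of 1.21 (1.06 to 1.38). Unthinned the shares were 87.6% and 72.1%. As a measure of free RNA, B lineage cells thinned to the same depth held that many in 10.5% of 258 GA cells and 4.55% of 220 control cells, although plasma cells among them can make Ly6C. The control B lineage cells also carried stromal RNA, with Col1a1 at 2267 CPM against 242 in GA, where dividing monocyte-lineage cells had 90.6 and 63.4, so they are an uneven measure of free RNA. Before thinning, the median B lineage cell held 7150 UMIs in GA and 6376 in control. Ccr2 reached 2 UMIs in 85.3% and 76.9% of the dividing cells, against 0.775% and 1.36% of B lineage cells.

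MHC class II marked part of the minority. H2-Aa, H2-Ab1 and H2-Eb1, which encode the chains that hold the peptide, together reached 10 UMIs in 10 GA cells (4.31%, 2.09 to 7.78) and 13 control cells (12.5%, 6.83 to 20.4), a ratio of 0.345 (0.156 to 0.761). Only 1 GA cell and no control cell held both that much MHC class II and 5 Ly6c2 UMIs. The MHC class II-high cells carried dendritic cell genes. Cd209a was at 172 CPM in GA and 210 in control, Zbtb46, a factor of conventional dendritic cells, at 40.6 and 85.5 CPM, and Mgl2 at 106 and 294 CPM. Xcr1, the receptor of type 1 dendritic cells, was at 156 CPM in GA and 11.0 in control, and was seen in 2 GA cells and 1 control cell.

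**Figure D3:**
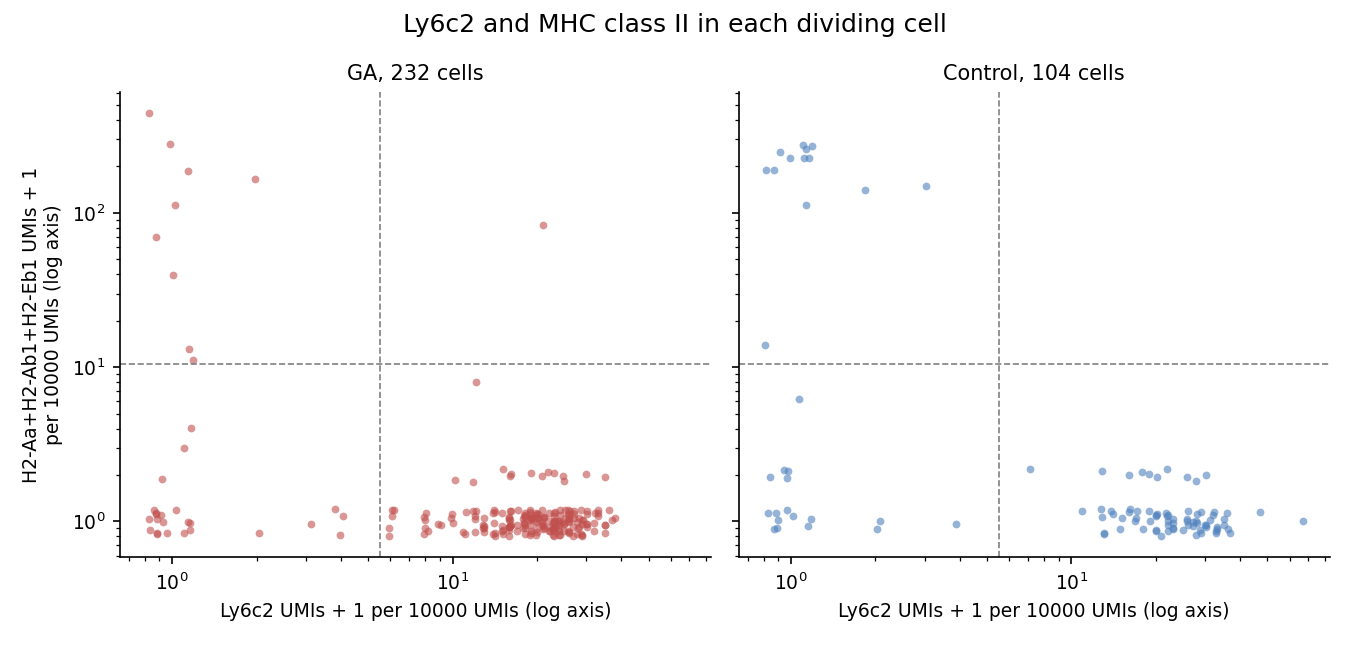
Each point is 1 dividing monocyte-lineage cell thinned to 10000 UMIs, with Ly6c2 UMIs on the x axis and the sum of H2-Aa, H2-Ab1 and H2-Eb1 on the y axis, both plus 1 on log axes and with small shifts so that points do not hide each other. Dashed lines mark 5 Ly6c2 and 10 MHC class II UMIs, and 1 GA cell and no control cell lie above both.

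Progenitor genes were spread over few cells. Kit, Cd34 and Flt3, receptors and a surface protein of early progenitors, together reached 2 UMIs in 23 GA cells (9.91%) and 7 control cells (6.73%). B lineage cells gave 11.2% and 7.27%, and B cell precursors themselves can express these genes, so the shares in the dividing cells cannot be read as above background. In the 33 GA cells below 5 Ly6c2 UMIs, Flt3 was at 162 CPM, and in the 30 control cells at 38.0 CPM. H2-Ab1 was at 1090 and 2027 CPM there, against 14.5 and 7.02 CPM in Ly6c2-high cells. C1q transcripts reached 3 UMIs in 2 GA cells and 1 control cell.

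Across 336 thinned cells, the genes whose levels followed Ly6c2 most closely were Hp, Tmsb10, Arhgdib, Msrb1, Mgst1, Prtn3, Prdx5, Coro1a, Hmgb2 and F13a1, out of 1144 genes compared. Spearman's rho was 0.560 for Hp, which encodes haptoglobin, 0.559 for the actin-binding Tmsb10 and 0.50 for the granule protease Prtn3. At the other end lay H2-Ab1 at -0.395, Lmna at -0.372 and H2-Aa at -0.337. The cells come from 2 libraries and share their library's depth and free RNA, so these values only describe them. In GA cells alone rho was 0.505 for Hp and -0.315 for H2-Ab1, and in control cells alone 0.684 and -0.515.

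Between GA and control, most genes of the dividing cells were close to each other. Over 6878 genes with at least 200 UMIs, the median log2 ratio was 0.02, with the 10th and 90th percentiles at -0.34 and 0.31. At least 1.5-fold higher in GA were 112 genes (1.63%) and 285 (4.14%) were at least 1.5-fold lower. Gene lists were read against these shares and against the median of 0.00 over 11405 genes with at least 20 UMIs.

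Cycle genes differed by small amounts. None of 50 G2/M genes passed 1.5-fold, and their median was 0.02. Of the S phase list, 43 of 45 genes were higher in GA, with a median of 0.24, but only Cdca7 of 42 passed 1.5-fold, at 37.3 against 23.9 CPM. Pcna, the clamp of DNA replication, was at 290 CPM in GA and 250 in control. Mki67 was at 613 and 602 CPM and Top2a at 704 and 689. Ribosome biogenesis genes were lower in GA in 21 of 22 cases, with a median of -0.27. Ncl, which encodes nucleolin, was at 395 and 587 CPM, but 5 of the control cells held 35.6% of its control UMIs.

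Antigen presentation and osteoclast genes were the lowest lists in GA. All 10 MHC class II genes with enough UMIs were lower in GA, with a median of -1.21, and 5 of 6 passed 1.5-fold. H2-Ab1 (chr17:34263227-34269418) was at 187 CPM in 46 GA cells and 811 CPM in 33 control cells, a log2 ratio of -2.12 (-2.21 to -2.03). In each library 5 cells held much of it, 85.0% of the GA UMIs and 50.9% of the control UMIs. The osteoclast list was lower in 14 of 14 genes, with a median of -1.64, and 9 of 10 passed 1.5-fold. Acp5, the tartrate-resistant phosphatase, was at 79.7 and 450 CPM, and the collagen-cutting protease Ctsk at 194 and 460 CPM. Of the Ctsk UMIs, 5 cells held 97.4% in GA and 93.9% in control.

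Within the Ly6c2-high dividing cells these differences were not seen. There the MHC class II median was 0.26 and none of 3 genes passed 1.5-fold, while the osteoclast median was -0.20. H2-Ab1 was at 14.5 CPM in GA and 7.02 in control. The summed level of H2-Aa, H2-Ab1 and H2-Eb1 reached 6461 CPM in 1 GA cell and 237 CPM in the highest control cell, and the median cell of each library had none. Ribosome biogenesis stood at 0.08, the tissue macrophage list at -0.09 against -0.49 in all dividing cells, and Ncl at 321 and 316 CPM. The classical monocyte list went from 0.19, with 22 of 25 genes higher in GA, to -0.08, with 10 of 25. Among dividing cells, the MHC class II and osteoclast differences were thus seen only where the Ly6c2-low cells were included. Over all non-dividing cells the medians were -0.73 for MHC class II and -1.63 for osteoclast genes. In non-dividing Ly6c2-high cells they were -0.54, with 2 of 8 genes higher in GA, and -0.33, with 4 of 9.

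The CCAAT box also belongs to MHC class II promoters, next to the X box that binds the RFX complex. The window of H2-Eb1 (chr17:34305617-34305866, plus strand, RefSeq, GRCm38.p6) is shown because this gene was among the 10 lowest in GA, at 156 CPM against 665 in control, with CCAAT on either strand in capitals.
H2-Eb1: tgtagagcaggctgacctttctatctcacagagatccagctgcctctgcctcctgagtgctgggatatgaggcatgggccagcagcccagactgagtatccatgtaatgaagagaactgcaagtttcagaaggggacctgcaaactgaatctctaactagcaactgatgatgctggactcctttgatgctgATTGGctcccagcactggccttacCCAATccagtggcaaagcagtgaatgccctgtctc
All 8 MHC class II genes with a RefSeq window held CCAAT, against 37.5% of all genes.

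**Figure D4:**
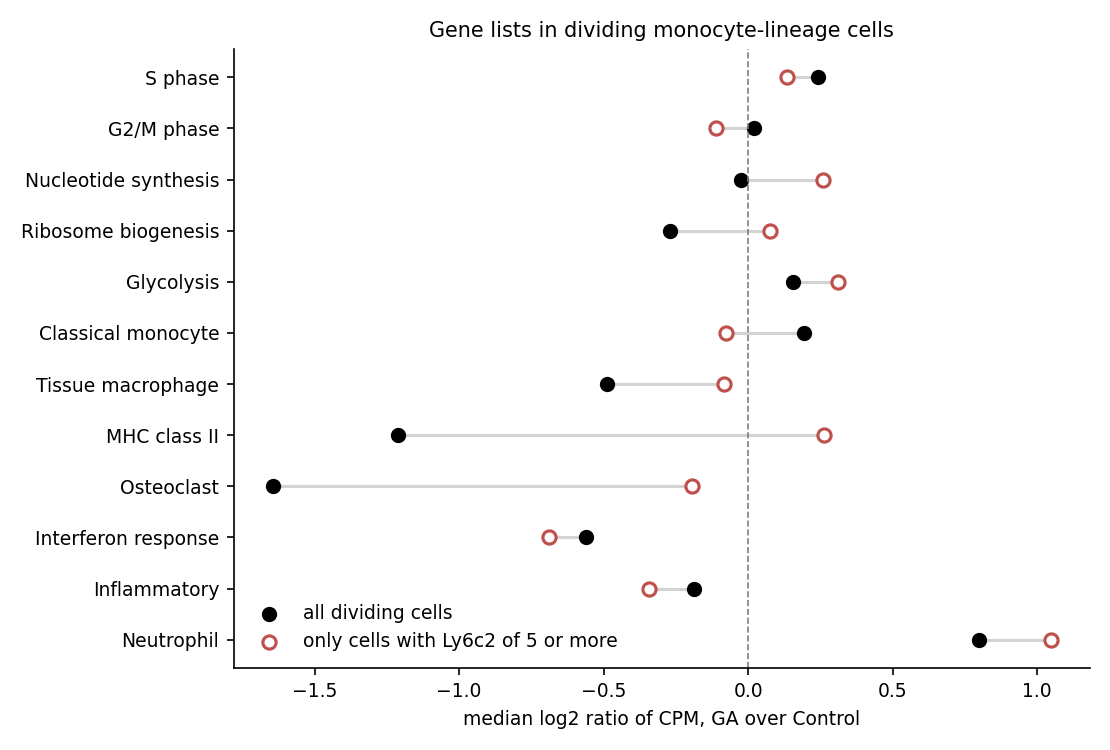
Median log2 ratio of CPM, GA over control, of 12 gene lists in all dividing monocyte-lineage cells (filled) and in those with 5 or more Ly6c2 UMIs (open). MHC class II moves from -1.21 to 0.26 and osteoclast genes from -1.64 to -0.20, while interferon response genes stay at -0.56 and -0.69. The neutrophil list includes Camp, Ngp and Ltf, whose share the rule caps.

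Interferon response genes were lower in GA in both sets. In all dividing cells the median of the list was -0.56, 5 of 38 genes were higher in GA, and 6 of 18 passed 1.5-fold, all lower. In the Ly6c2-high cells it was -0.69, with 2 of 36 genes higher in GA and 4 of 14 lower by 1.5-fold, against 85 of 5961 genes in all (1.43%) lower and 116 (1.95%) higher. The median over all 10616 genes in those cells was 0.02. Non-dividing Ly6c2-high cells, 135 in GA and 115 in control, gave -0.85, with 1 of 39 genes higher in GA. Over all non-dividing cells, Ly6c2-high and low together, the median was -0.01, so the difference was not seen there.

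Ifi27l2a, an interferon-induced gene, was the most abundant of the list. In Ly6c2-high dividing cells it was at 333 CPM in GA, in 161 of 199 cells, and 876 CPM in control, in 64 of 74 cells, a log2 ratio of -1.40 (-1.49 to -1.31). The median cell held 163 CPM in GA and 595 in control, and the spread overlapped, with quartiles at 30.1 and 570 CPM in GA and at 164 and 1436 in control. Irf7, the factor that amplifies the interferon response, was at 17.4 and 41.1 CPM. Isg15, a ubiquitin-like modifier, was at 7.32 and 20.1 CPM. Ms4a4c was close, at 250 and 281 CPM, as was Bst2, at 89.1 and 94.8. Without Ifi27l2a and Ms4a4c, the list's sum in the median cell was 683 CPM in GA and 1091 in control.

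Some of the largest differences rested on few cells. Cxcl10, a chemokine that draws T cells, was at 15.6 CPM in 40 Ly6c2-high GA cells and 137 CPM in 20 control cells, but 5 control cells held 76.2% of the control UMIs. Rsad2, which encodes the antiviral enzyme viperin, was at 2.21 and 44.1 CPM, with 98.9% of the control UMIs in 5 cells. B lineage cells of the same libraries also had less in GA, with Ifi27l2a at 296 against 422 CPM, Isg15 at 9.46 against 19.1 and Cxcl10 at 5.48 against 24.4. What free RNA adds to the difference was not tested.

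Interferon factors switch on these genes through the interferon-stimulated response element, whose core was searched on both strands as GAAA, any 2 bases and GAAA again. The windows of Cxcl10 (chr5:92348890-92349139, minus strand), which had the lowest ratio of the list genes with at least 200 UMIs, and of Ifit3 (chr19:34583279-34583528, plus strand), among the genes lowest in dividing cells, are shown with the core in capitals (RefSeq, GRCm38.p6).
Cxcl10: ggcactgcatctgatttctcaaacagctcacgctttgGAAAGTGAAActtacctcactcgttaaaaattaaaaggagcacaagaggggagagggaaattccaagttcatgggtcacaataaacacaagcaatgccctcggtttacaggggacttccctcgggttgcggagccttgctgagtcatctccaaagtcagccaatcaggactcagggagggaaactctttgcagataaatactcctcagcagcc
Ifit3: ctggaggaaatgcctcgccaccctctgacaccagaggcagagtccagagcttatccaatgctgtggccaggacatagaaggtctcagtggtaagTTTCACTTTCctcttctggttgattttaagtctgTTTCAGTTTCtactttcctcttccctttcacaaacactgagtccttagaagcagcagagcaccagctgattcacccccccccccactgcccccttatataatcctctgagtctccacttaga
The core begins 213 bases before the start in Cxcl10, and 156 and 122 bases before it in Ifit3. It was present in 16 of 32 list genes with a window (50%) and in 936 of 27025 genes in all (3.46%). A match is not a measured site.

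**Figure D5:**
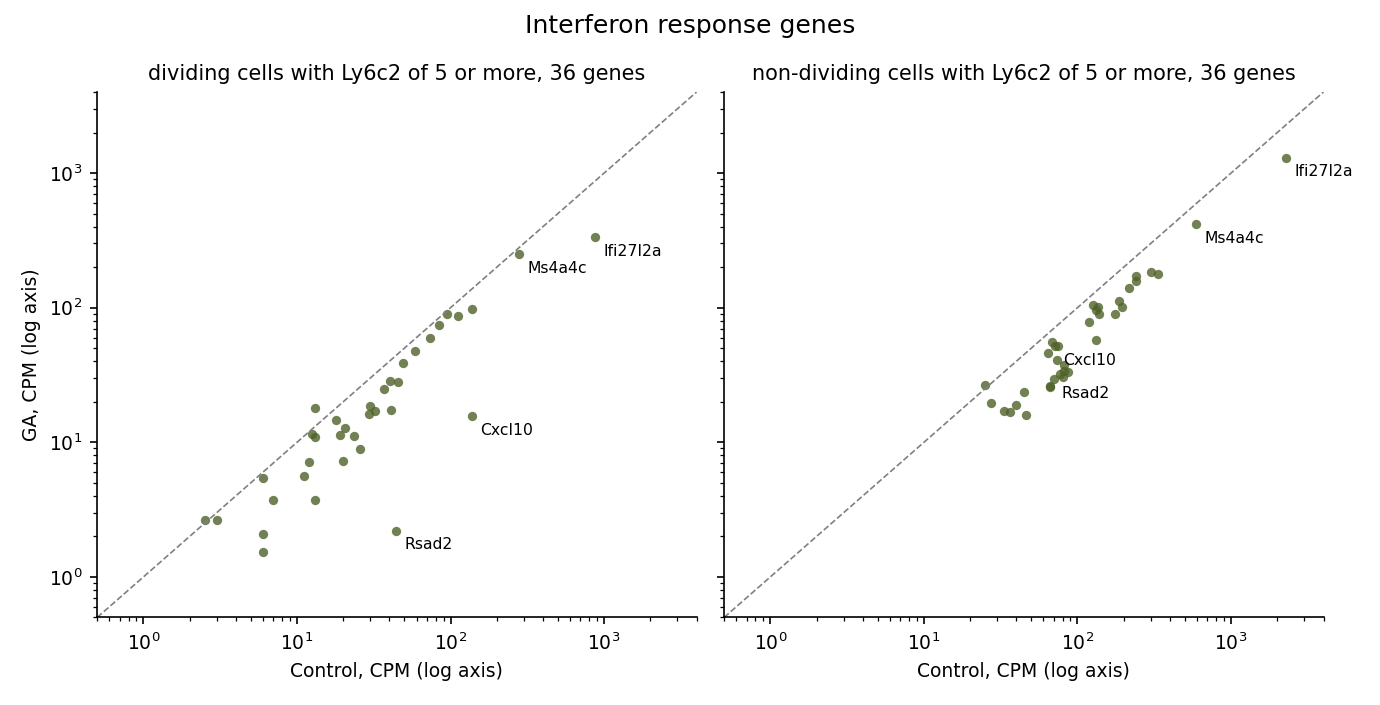
CPM of 36 interferon response genes in control (x axis) and GA (y axis), both on log axes, in dividing (left) and non-dividing (right) monocyte-lineage cells with 5 or more Ly6c2 UMIs. Most points lie below the dashed line of equality, and Ifi27l2a is at 333 against 876 CPM in the dividing cells.

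The inflammatory list had a smaller median difference than the interferon list. In all dividing cells its median was -0.19, with 4 of 21 genes lower by 1.5-fold and 2 higher. In the Ly6c2-high cells it was -0.34, with 6 of 17 lower and none higher. The dissociation stress list, of immediate early and heat shock genes that tissue digestion can raise, moved with it. In both sets of cells 4 of its 19 genes were higher in GA, with medians of -0.12 and -0.20, and in Ly6c2-high cells 3 of 18 were lower by 1.5-fold. Its part in the inflammatory difference was not tested. Nfkbia, the inhibitor that NF-kB induces against itself, was at 303 CPM in Ly6c2-high GA cells and 503 in control, with values in 180 and 67 cells. Ccl4 was at 62.7 and 133 CPM there, with 81.1% of the control UMIs in 5 cells. Il1b was at 584 and 741 CPM. Spp1, or osteopontin, was at 94.1 and 233 CPM, and the heat shock gene Hspa1a at 79.6 and 194, both with over 80% of the control UMIs in 5 cells.

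The genes highest in GA were mostly neutrophil transcripts. Of the neutrophil list, 6 of 10 genes were higher in GA by 1.5-fold and 1 lower. Camp and Ngp, whose share the rule caps, are among those 6, so the count is a description. The 10 with the largest ratios in all dividing cells were Wfdc21, Retnlg, S100a9, S100a8, Lcn2, Cxcl3, Camp, Ngp, Glis3 and Vcan. S100a8 and S100a9, the calprotectin subunits, were at 1471 and 701 CPM in GA and 266 and 122 in control. Summed, they were at 639 CPM in the median GA cell and 145 in the median control cell. Of the S100a8 UMIs, 5 cells held 20.3% in GA and 67.2% in control. The rule caps the share of S100a8 and S100a9 and that of Camp and Ngp, so these 4 genes only describe the cells it took. Wfdc21 was at 70.1 CPM in 121 GA cells and 3.63 CPM in 8 control cells, and Lcn2, an iron-binding secreted protein, at 172 and 36.0 CPM. B lineage cells, which do not make neutrophil granule transcripts, also had more of these in GA, with 4022 and 764 CPM of S100a8, 178 and 29.7 of Wfdc21, and 302 and 33.7 of Lcn2. The part of free neutrophil RNA in the difference was not tested.

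For Vcan, Cxcl3 and Glis3, B lineage cells had less in GA. Those of control carried stromal RNA as well, as given for Col1a1, so this order is no measure of free RNA alone, and its part was not tested. Cxcl3, a chemokine, was at 31.3 and 7.55 CPM in the dividing cells and at 1.51 and 12.2 in B lineage cells, and 5 cells held 81.1% of its GA UMIs. Glis3, a zinc finger factor, was at 51.1 and 17.5 CPM in the dividing cells and at 15.8 and 61.6 in B lineage cells. Vcan encodes versican, a matrix proteoglycan made by classical monocytes, and was at 751 CPM in 182 GA cells and 266 CPM in 44 control cells, a log2 ratio of 1.5 (1.39 to 1.60). In Ly6c2-high cells it was at 886 and 435 CPM, in 177 of 199 and 38 of 74 cells, a log2 ratio of 1.03 (0.92 to 1.13). The median cell held 391 CPM in GA and 37.4 in control, and 5 cells held 66.1% of the control UMIs. B lineage cells had 3.87 CPM in GA and 81.6 in control. In non-dividing Ly6c2-high cells it was at 1201 and 558 CPM, so GA was higher in both states.

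Other genes of the Ly6c2-high cells were also higher in GA. Prtn3, a protease of progenitor granules whose share the rule caps, was at 543 CPM in GA and 316 in control, with medians per cell of 358 and 134. B lineage cells had 1603 and 192 CPM of Prtn3, the same order, and the part of free RNA in its difference was not tested. Trem3, an activating receptor, was at 77.6 and 46.1 CPM, Gngt2, a G protein subunit, at 58.4 and 21.1, and Pam, an enzyme of peptide amidation, at 32.6 and 12.5. Glycolysis genes had a median of 0.31, 15 of 18 were higher, and none of 16 passed 1.5-fold. Gapdh was at 1688 and 1280 CPM and Pkm at 769 and 632. Ccr2, Chil3 and F13a1 were close, at 738 and 674, 1403 and 1308, and 1561 and 1540 CPM.

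Genes of the neurotrophin and hedgehog pathways were low or not detected in these cells. Of 23 such genes, 9 had no UMI in either library, which allows up to 0.348 CPM in GA and 0.906 in control for each. Among them were the hedgehog ligands Shh and Dhh and the target gene Gli1. Sort1, a sorting receptor that also binds pro-neurotrophins, was at 53.4 and 41.1 CPM. The hedgehog receptor Ptch1 was at 2.43 and 2.72 CPM, and Smo at 2.43 and 4.53 CPM.

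Markers of most other cell types were low in the dividing cells. The neutrophil list summed higher, to 9144 CPM in GA and 8130 in control, led by Lyz2, which is also a monocyte gene. The dendritic list summed to 608 and 681 CPM. Without Siglech, which the rule uses, the plasmacytoid dendritic list summed to 338 and 328 CPM. Of 12 T and NK genes, Cd3e, Trbc2, Cd4 and Ncr1 had no UMI, and the list summed to 36.9 CPM in GA and 58.3 in control, led by Il7r. The B and plasma list summed to 254 and 174 CPM, against 15456 CPM in control B lineage cells, and was led by Ighm, at 201 and 140 CPM in 215 and 87 cells. The mesenchymal list summed to 171 and 205 CPM, led by Runx2, which plasmacytoid dendritic cells also express, and the endothelial and mural list to 85.1 and 47.7 CPM, led by Pecam1. Erythroid genes summed to 52.6 and 113 CPM. Basophil and mast cell genes summed to 47.5 and 20.8 CPM, nearly all of it Hdc, and 6 of the 10, among them Cpa3 and Ms4a2, had no UMI.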

How the data were processed

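Single-cell RNA was measured in 2 libraries, 1 per group, with the Chromium 3' assay. The authors deposited counts, UMIs per gene and cell barcode, with no normalization, from Cell Ranger (7.0.1 in the file headers) on mm10. The GA counts sum to 182949385 UMIs over 9322 barcodes and the control counts to 214993030 over 8718. Barcodes with 500 to 140000 UMIs, 200 to 9500 genes and at most 15% mitochondrial UMIs were kept. To the rule given at the opening, the limits were below 3% of UMIs for S100a8 and S100a9, 0.3% for Mpo, Elane, Prtn3 and Ctsg, 0.5% for Camp, Ngp and Ltf, and 1% for Col1a1, Col1a2 and Col3a1. A limit on 1 further gene is part of the rule and is not reported here. Dividing C1q macrophages met the rule but held 20 or more C1q UMIs. B lineage cells held 3 or more UMIs of Cd79a and Cd79b.

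UMIs were summed over the cells of a library and scaled to CPM. Log2 ratios carry exact conditional binomial intervals, shares carry Clopper-Pearson intervals, and ratios of shares carry log-normal intervals. Genes with at least 200 UMIs were counted past 1.5-fold, list medians used genes with at least 20 UMIs, and 31 lists with 621 genes in the files were written from general knowledge. Named genes are the rule genes and markers, the 10 highest and 10 lowest between groups and against non-dividing cells, up to 5 most abundant and 3 most different per list, and the 10 most and least like Ly6c2. Others, among them Cdk1, Ccnb2, Ccna2 and the genes of the Ly6c2-high cells, were chosen after their values were seen. Cells were thinned to 10000 UMIs with seed 1. Scrublet marked 0 GA and 39 control barcodes (0.447%), under the share at which such a call is taken as working, so it was used only to leave out the 695 and 608 highest scores as an alternative. The libraries shared 23 barcodes, 2 of them with a dividing monocyte-lineage cell.

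The members and lists were chosen with earlier results of these data known, and the analysis of Ly6c2-high cells was added after seeing the data. Alternatives changed the thresholds, doublets, depth, scaling, cell weight and minimum counts. The log2 ratios, their intervals and the Clopper-Pearson intervals were tested on simulated counts. These were drawn without variation between cells, so they do not cover genes whose UMIs lie in a few cells. The choice of cells, thinning and list medians were not simulated. Promoter windows and gene positions come from RefSeq (GRCm38.p6). Python 3.11.15, numpy 2.4.6, scipy 1.17.1, pandas 2.3.3, scanpy 1.11.5 and matplotlib 3.10.9 were used.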

Additional observations from a re-analysis of the deposited data

Results flagged for a closer look

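In 4 gene lists the median log2 ratio of GA over control had opposite signs in dividing and non-dividing monocyte-lineage cells and differed by at least 1.5-fold, among lists with at least 5 genes of 20 UMIs in both. Other lists had opposite signs with smaller gaps or fewer genes. In 2 named genes the counting intervals lay on opposite sides of 0. With 1 library per group, none of these differences was tested. The early progenitor list had a median of 0.49 in dividing and -0.69 in non-dividing cells, where Kit was at 0.848 CPM in GA and 13.3 in control. Repair factors stood at -0.53 and 0.084, although their summed level in dividing cells was higher in GA, at 5730 against 5059 CPM. In Ly6c2-high dividing cells their median was -0.13. The B and plasma list stood at 0.52 and -0.53 and the endothelial and mural list at 1.04 and -0.28, both on genes with few UMIs, such as Emcn, whose 45 GA UMIs all lay in 1 dividing cell. Tppp3 was at -2.58 in dividing and 0.45 in non-dividing cells, and 5 dividing control cells held 79.3% of its control UMIs. Slc7a8, an amino acid transporter, was at -2.08 and 0.16, with 60.8% of its control UMIs in 5 cells.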

How the results depend on the processing

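No paired analysis was possible because each group has 1 library. The shares of dividing cells and of the gate that was dividing kept ratios of 1.88 to 2.36 and 1.91 to 2.29 under the other thresholds, the mitochondrial limit, thinning, the depth limit and the removal of the highest Scrublet scores. Kept to Ly6c2-high cells, a choice made after seeing the data, they were 2.85 and 1.5. This setting also took only cells with at least 10000 UMIs, since Ly6c2 was counted after thinning. The depth limit alone gave 2.36 and 1.91, so the move cannot be put down to the Ly6c2 choice alone. Genes higher and lower in GA numbered 21 and 99 at 2-fold, 390 and 735 with at least 50 UMIs, 42 and 115 with at least 500, 45 and 48 in thinned cells, and 116 and 85 in Ly6c2-high cells. The MHC class II median was -1.63 with at least 50 UMIs, -1.38 with every cell weighing the same, -2.05 with at least 5 UMIs of Mki67 and Top2a, and -0.68 without the highest Scrublet scores. In Ly6c2-high cells it reversed to 0.26, to 0.50 with every cell weighing the same and to 0.26 without the highest Scrublet scores. There H2-Aa, H2-Ab1 and H2-Eb1 together were at 36.3 CPM over the GA cells, with 1 cell at 6461. Any UMI of them was in 26.6% of GA and 27.0% of control cells, with upper quartiles of 15.8 and 26.8 CPM. The reversed sign thus shows no general rise of MHC class II in GA. The osteoclast median was -1.25 with every cell weighing the same, and in Ly6c2-high cells -0.20, 0.016 and -0.15 under the same 3 settings. The classical monocyte median was 0.077 with every cell weighing the same, and -0.078, -0.043 and -0.086 in Ly6c2-high cells. The interferon response median stayed between -0.69 and -0.47 under all 8 settings tried. Of 26 lists compared in Ly6c2-high cells, 17 stayed within the median counting error of their genes, 8 moved by more and 1, MHC class II, reversed from a value past 1.5-fold. Of 21 list medians of dividing over non-dividing cells, 13 in GA and 7 in control moved by more than that error in Ly6c2-high cells, and none past 2-fold reversed. The log2 ratios of 46 of 92 named genes left their counting interval in Ly6c2-high cells without reversing, as did 33 of 95 without the highest Scrublet scores and 35 of 95 with every cell weighing the same. In Ly6c2-high cells the log2 ratio reversed to 0.19 for Tppp3, 1.41 for Mmp9, 0.28 for Pmepa1, 1.05 for H2-Ab1, 1.40 for H2-Eb1, 1.60 for H2-Aa, 0.26 for Cd74 and 0.60 for Nfatc1. The cause of these changes was not tested. Depth limits the control side most, where 104 cells held 3310157 UMIs, and values of genes under about 200 UMIs can rest on a few cells.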

Other observations

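Regulators of the first gap phase were present in the dividing cells of both libraries, and none of the 17 with at least 200 UMIs passed 1.5-fold. Ccnd3, a D cyclin of blood cells, was at 239 CPM in GA and 175 in control, above the non-dividing cells at 175 and 153. Ccnd1, with fewer UMIs, was at 10.9 and 25.4 CPM, with 66.0% and 57.1% of its UMIs in 5 cells. Cdkn2d, an inhibitor of the D cyclin kinases, was at 201 and 156 CPM, and higher than in non-dividing cells, at 62.7 and 44.9. Cdkn1a, another inhibitor, was at 354 and 377 CPM. Rb1, which encodes the retinoblastoma protein, was at 94.2 and 71.3 CPM.

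The subunits of the phagocyte oxidase, which makes superoxide against microbes, were already present in dividing cells. Cyba was at 1102 CPM in GA and 1054 in control and Cybb at 600 and 587, and none of the 8 genes of the list passed 1.5-fold. Of the receptors for microbial products, Cd14 was at 618 and 704 CPM, Tlr2 at 171 and 182, and Tlr4 at 54.8 and 33.8. The lineage factors Spi1, Cebpb, Zeb2 and Runx1 each differed by less than 0.20 on the log2 scale. Irf4 and Id2, factors of dendritic cells, were lower in GA, at 4.29 against 19.9 CPM and 99.8 against 195 CPM. In Ly6c2-high cells Id2 was at 73.5 and 93.3 CPM.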
